A study of Nothobranchius furzeri with 6 samples.

Results

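The miRNA families mir-23, mir-27 and mir-24 were measured in the brain of the turquoise killifish Nothobranchius furzeri (an annual fish with one of the shortest lifespans among laboratory vertebrates). They were taken as the 3 rows of the deposited count table named nfu-mir-23, nfu-mir-27 and nfu-mir-24, out of 324 rows in all. The table holds 6 small RNA libraries from brains of males of the strain MZM-04/10p, all 39 weeks old, so there is 1 group and no contrast of age, sex, strain or treatment. The labels do not state that each library came from a separate animal, and p-values therefore measure the spread between these 6 samples. Each of the 3 rows is a family count in which the arms of the hairpin and the copies of the gene are not separated.

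In human and mouse, miR-23, miR-27 and miR-24 are cut from shared primary transcripts, and the genome carries paralogous copies of this cluster. One copy lies in an intron of the aminopeptidase O gene, and the other is transcribed from its own promoter. The mature miRNAs are then loaded into Argonaute separately, so that their levels need not match even when they come from the same transcript. In mammals, miR-23 and miR-27 are known from endothelial cells and blood vessel growth, miR-27 from the control of lipid metabolism and fat cell differentiation, and miR-24 from cell cycle arrest and cell survival.

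The libraries held 11924483 to 16597229 counts. Log2 levels of the 214 rows with a mean of at least 10 counts, the rows tested below, correlated between libraries with r of 0.979 to 0.993, a correlation across rows, which are not independent replicates. No 2 libraries agreed within sampling noise, the smallest chi-square for a pair being 387 per degree of freedom, so none was taken for a repeat deposit of another. This does not show that the brains were separate, since repeat preparations of 1 brain would also differ by more than sampling. Marker families were checked against the labelled tissue: 5 neuronal families (mir-124, mir-128, mir-132, mir-153 and mir-9) summed to 149767 ± 19480 CPM, and 2 oligodendrocyte families to 18695 ± 1900 CPM (SD, n = 6). Markers of blood, muscle and liver were lower, with 1102 ± 193 CPM for muscle, 470.6 ± 160 CPM for red blood cells (191.4 to 625.4 CPM between libraries), 455.2 ± 72.2 CPM for white blood cells with microglia and 9.98 ± 0.827 CPM for the liver marker mir-122. The vessel wall families described below summed to 8835.5 ± 1352 CPM. Single rows carried much of the sums. The neuronal means were 65310.5 CPM for mir-128, 52186 for mir-9, 19494 for mir-132, 8708 for mir-153 and only 4069 for mir-124. Of the oligodendrocyte families mir-338 had 17550 CPM and mir-219 1145 CPM, and mir-133 held 1076 CPM of the muscle sum. Here CPM is counts per 1000000 of a library's total after scaling with edgeR's TMM factors.

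The family mir-27 was by far the most abundant of the 3. Its level was lowest in library 5 at 20131 CPM, had a median of 22917 CPM and was highest in library 6 at 28723 CPM. Libraries 2 and 6 lay above the other 4, which stayed between 20131 and 23727 CPM. The mean was 23879 ± 3476 CPM (SD, n = 6), the 10th highest of the 324 rows, and the rank within single libraries ran from 8 to 12. The counts behind it were 246670 to 412431 per library, and the exact 95% binomial interval of library 6 was 28630 to 28817 CPM. Such intervals and the floor below cover counting error only, as PCR copies of a molecule were not marked.

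The family mir-23 stood far lower and was the steadiest of the 3. The lowest level was 635.8 CPM in library 1, the median 671.9 CPM and the highest 757.9 CPM, in library 2. Libraries 2, 6 and 3 were the high ones, and libraries 4, 5 and 1 lay close together at 635.8 to 645.1 CPM. The mean was 682.3 ± 49.8 CPM (SD, n = 6), which placed the row 52nd of 324, on 7558 to 12145 counts per library. The exact 95% intervals of libraries 4, 5 and 1 overlapped, while that of library 2, 744 to 772 CPM, lay above those of the other 5.

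The family mir-24 was the lowest. It ranged from 153.9 CPM in library 4, through a median of 191.3 CPM, to 227.0 CPM in library 6. Library 4 was low and library 6 high, with the remaining 4 between 174.5 and 207.2 CPM. The mean was 190.8 ± 25.8 CPM (SD, n = 6), the 80th highest row, on 1803 to 3461 counts per library. Library 4 had an exact 95% interval of 147 to 161 CPM, and library 6 one of 219 to 236 CPM. The detection floor of 3 counts lay at 0.173 to 0.256 CPM, far under the 3 families in all 6 libraries.

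**Figure D1:**
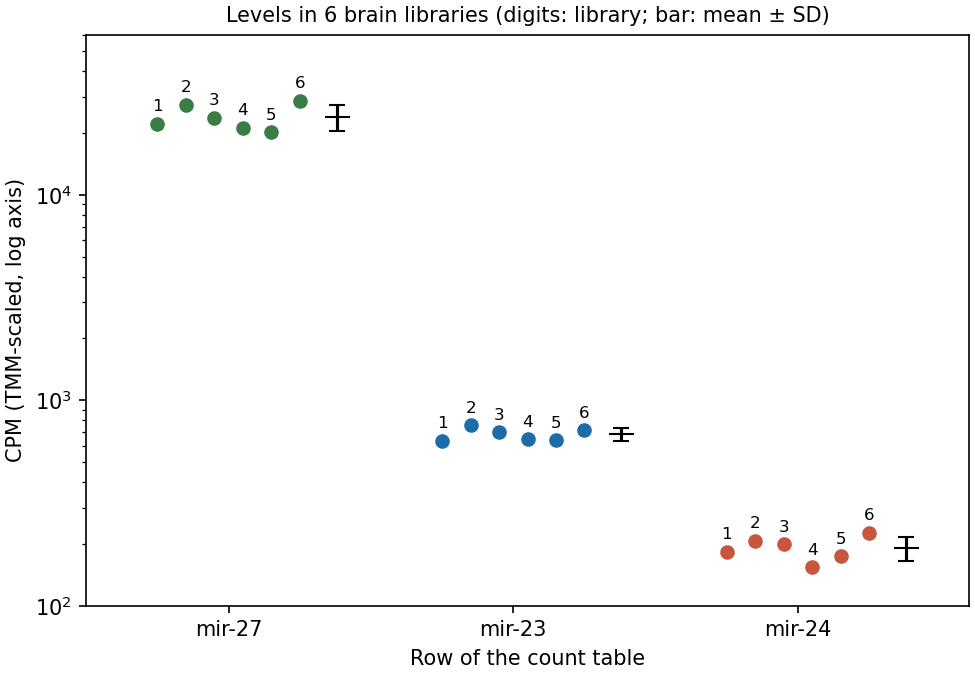
Level of mir-27, mir-23 and mir-24 in each of 6 libraries, in TMM-scaled CPM on a log axis, with the library number above each point and the mean ± SD over 6 libraries at the right of each row. The ranges of the 3 rows do not overlap: mir-27 lies between 20131 and 28723, mir-23 between 635.8 and 757.9 and mir-24 between 153.9 and 227.0 CPM.

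Together the 3 rows held 2.48% ± 0.349 of all counts (SD, n = 6), between 2.04% in library 5 and 2.88% in library 2. Nearly all of this was mir-27, which made up 96.4% ± 0.242 of the summed counts. The family mir-23 made up 2.78% ± 0.224 and mir-24 0.773% ± 0.0505. Between libraries the share of mir-27 ran from 96.1% to 96.8%, that of mir-23 from 2.41% to 3.06% and that of mir-24 from 0.70% to 0.83%. As mir-27 held nearly all of the sum, its share had little room to move.

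Measured within libraries, mir-27 was 34.8-fold above mir-23, a log2 ratio of 5.12 ± 0.12 (SD, n = 6), with 31.4-fold in library 5 and 40.1-fold in library 6 as the extremes. It was 125-fold above mir-24, a log2 ratio of 6.97 ± 0.10, with extremes of 115-fold in library 5 and 138-fold in library 4. The family mir-23 was 3.59-fold above mir-24, a log2 ratio of 1.85 ± 0.13, with extremes of 3.15-fold in library 6 and 4.19-fold in library 4. The order mir-27, mir-23, mir-24 was the same in 6 of 6 libraries. An exact sign-flip permutation test, two-sided, gave p = 0.031 for each of the 3 ratios, the smallest that 6 libraries allow, and the Benjamini-Hochberg adjusted p over the 3 ratios was also 0.031. A fixed order is common in this table: 88.2% of all pairs of tested rows kept 1 order in 6 of 6 libraries. The kit ligates adaptors to the RNA ends with an efficiency that depends on sequence, so a ratio between rows mixes abundance with ligation, and its part in these ratios was not tested.

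In the ranking of rows by mean level, each of the 3 families had neighbours on both sides whose range over the libraries overlapped its own. The level of mir-27 lay below that of mir-22 (28269 ± 1710 CPM), which was higher in 5 of 6 libraries, and below that of mir-221 (27219 ± 9073 CPM), a family studied in cell proliferation, which was higher in 3 of 6. Below it came the activity-regulated neuronal family mir-132 (19494 ± 2960 CPM), which exceeded mir-27 in 2 of 6 libraries, and mir-724 (18116 ± 2197 CPM), which exceeded it in 0 of 6. The levels next to mir-23 were those of mir-676 (858.9 ± 291 CPM), higher in 4 of 6 libraries, and mir-148 (769.6 ± 78.6 CPM), higher in 6 of 6. On the lower side of mir-23 stood mir-455 (659.1 ± 58.7 CPM) and the neuronal family mir-137 (622.1 ± 144.9 CPM), higher than mir-23 in 1 and 2 of 6 libraries. The levels next to mir-24 were those of mir-477 (202.6 ± 18.5 CPM), epithelial mir-205 (197.4 ± 150 CPM), mir-723 (178.2 ± 39.96 CPM) and white blood cell mir-142 (174.0 ± 41.6 CPM), each higher than mir-24 in 2 to 4 of 6 libraries. This held for all 12 neighbours, although mir-148 lay above mir-23 and mir-724 below mir-27 in 6 of 6 libraries.

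The next question was how far the 3 families varied among these libraries. The SD of log2(CPM + 1) was 0.10 for mir-23, 0.20 for mir-24 and 0.21 for mir-27, against a median of 0.27 over the 214 tested rows. From the lowest to the highest library mir-23 differed 1.19-fold, mir-27 1.43-fold and mir-24 1.48-fold, against a median of 1.8-fold over the tested rows. Only 13 of the 214 tested rows had a smaller log2 SD than mir-23, while 69 were below mir-24 and 71 below mir-27. The added 1 CPM shrinks the log2 SD of rows of low level. One of the 13, pred_814, had a mean of only 2.56 CPM.

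Spread depends on abundance, and the comparison with rows of like level gave another picture for mir-27. Among the 26 other rows within 2-fold of the mean of mir-23, 2 had a smaller log2 SD, and the median was 0.25. Among the 22 such rows around mir-24, 5 were below it, and the median was 0.35. Among the 8 such rows around mir-27, however, 5 were below it, and the median was 0.18. These counts are a description with no test.

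**Figure D2:**
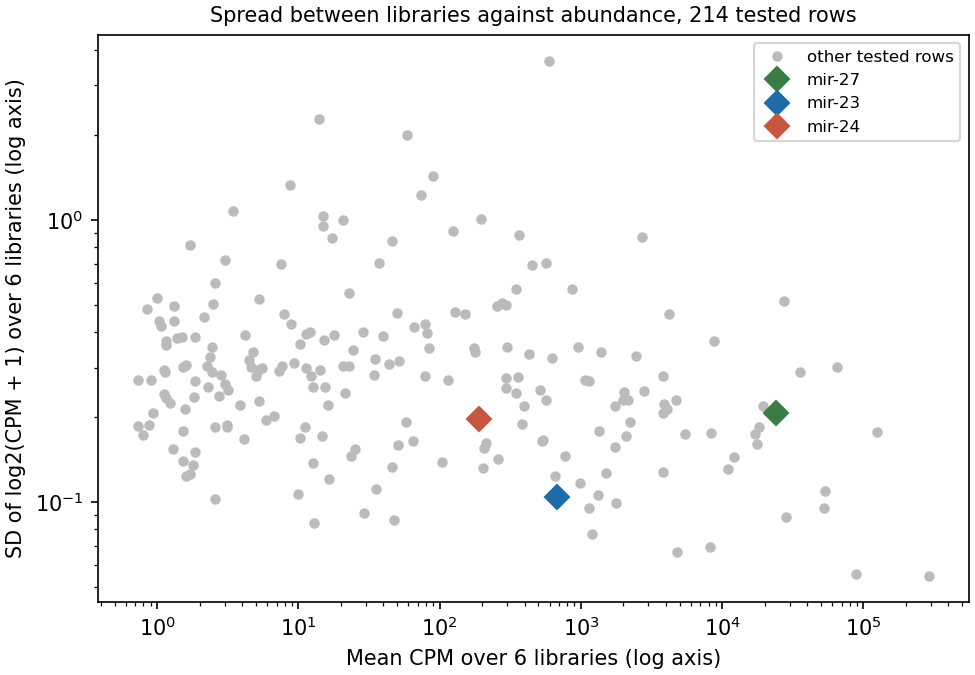
SD of log2(CPM + 1) over 6 libraries (log axis) against mean CPM (log axis) for the 214 tested rows, with each grey point a row and the diamonds mir-23, mir-24 and mir-27. The diamond of mir-23 sits near the lower edge of the cloud at 0.10, while those of mir-24 at 0.20 and mir-27 at 0.21 lie inside it.

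None of the 3 families was called as varying in edgeR's goodness-of-fit test. This test fits 1 mean to the 6 libraries and asks whether a row scatters more than the dispersion trend of the table allows. The trend was fitted with the most variable rows in it, which limits the test. With the called rows left out of that fit, 22 rows were called, and the 3 families were still not among them. The unadjusted p was 0.999 for mir-23, 0.988 for mir-24 and 0.95 for mir-27, and the Benjamini-Hochberg adjusted p over the 214 rows was 0.9999 for each. In the same test 8 rows were called, or 3.74% of those tested, and 18 had an unadjusted p under 0.05. At an unadjusted p under 0.05 the count among the 3 families was 0, and it was also 0 as DESeq2 dispersion outliers. The test asks for excess only, so a p near 1 gives no significance to the steadiness of mir-23. The spread was still larger than counting noise. The Poisson index of dispersion, which is 1 for pure counting, was 48.4 for mir-23, 42.6 for mir-24 and 6386 for mir-27. By it all 3 passed at an adjusted p under 0.05, as did 177 of the 214 rows. The index grows with the count at the same relative spread, so it does not order the families by variability. Their SD was 7.3%, 13.5% and 14.6% of the mean CPM in the same order. The trend in edgeR's test already allowed an SD of about 0.36, 0.39 and 0.30 of the mean in that order. Not being called therefore says little about smaller variation.

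Because the 3 families are made from shared transcripts in other vertebrates, their levels were compared across the 6 libraries. The libraries in which they were high and low were largely the same. Libraries 2, 6 and 3 held the 3 highest levels of each family, and libraries 1, 4 and 5 the 3 lowest. Relative to its own mean on the log2 scale, library 6 was higher by 0.28 for mir-27, 0.26 for mir-24 and 0.07 for mir-23, and library 2 by 0.21, 0.13 and 0.15 in the same order. In library 5 the deviations were -0.23 for mir-27, -0.12 for mir-24 and -0.09 for mir-23, and in library 4 they were -0.16, -0.30 and -0.08. The same 3 libraries were also the deepest, with 16597229 counts in library 3, 14531614 in library 2 and 12776508 in library 6. Libraries 5, 1 and 4 had 12589535, 11970136 and 11924483 counts. Among the 3 deep libraries the order differed, since library 3, the deepest, had the lowest level of each family. A part of depth in the shared pattern was not tested.

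**Figure D3:**
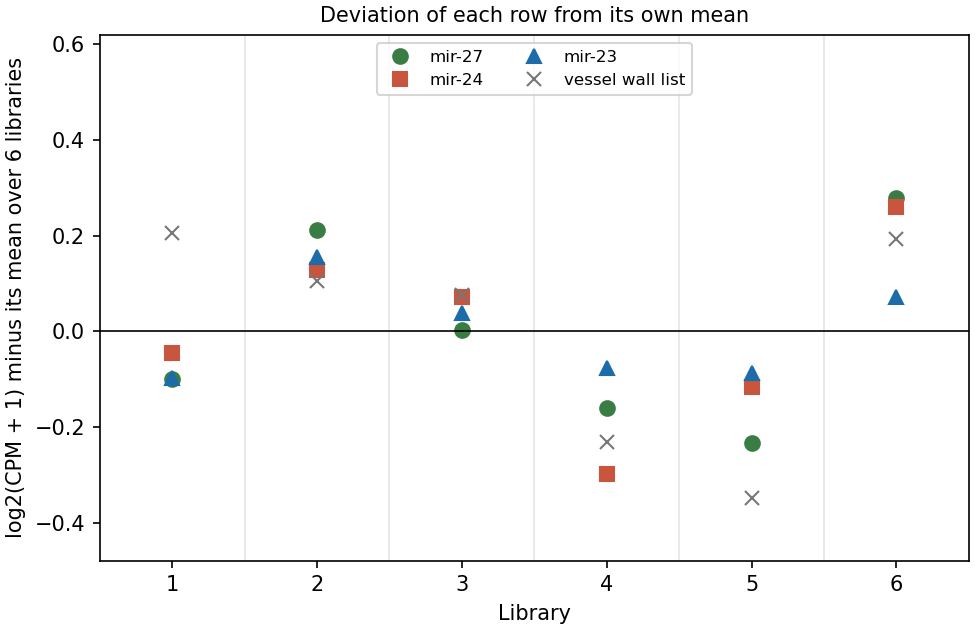
Deviation of log2(CPM + 1) from its mean over the 6 libraries, for mir-27, mir-24, mir-23 and the summed vessel wall families (mir-126, mir-143 and mir-145), by library. The 3 families lie above 0 in libraries 2, 3 and 6 and below 0 in libraries 1, 4 and 5, while the vessel wall list is above 0 in library 1 (0.21).

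Of the 6 relations tested, those between mir-27 and its partners were the strongest, and none passed after adjustment. Between mir-23 and mir-27, Pearson's r was 0.89, with an exact permutation p of 0.0181 and an adjusted p of 0.0542 over the 6 relations. Spearman's rho was 0.77, with an exact p of 0.103 (0.263 after adjustment), and r was 0.79 without libraries 2 and 6, the farthest from the median. Between mir-24 and mir-27, r was 0.89, again with an exact permutation p of 0.0181 and an adjusted p of 0.0542. Here rho was 0.94, with an exact p of 0.0167 (0.10 after adjustment), and r was 0.96 without libraries 4 and 6. Between mir-23 and mir-24, r was 0.78, with an exact permutation p of 0.0611 and an adjusted p of 0.122. For this pair rho was 0.71, with an exact p of 0.136 (0.263 after adjustment), and r was 0.63 without libraries 2 and 6. Leaving out 1 library at a time kept r between 0.75 and 0.97 for these 3 pairs. Of all pairs of tested rows, 3.01% had a positive r with an unadjusted exact p under 0.05, against 2 of these 3, and the median r over all pairs was close to 0. The levels share the scaling of their library. Without the TMM factor r was 0.86 for mir-23 with mir-27, 0.89 for mir-24 with mir-27 and 0.78 for mir-23 with mir-24. Each then had an adjusted p of 0.115 in the exact permutation test. These levels were still divided by the library total, so the shared scaling was not removed.

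Since the cluster is known from endothelium, the 3 families were also set against the families of the vessel wall, endothelial mir-126 and smooth-muscle mir-143 and mir-145, whose summed level was lowest in library 5 (6869 CPM) and highest in library 1 (10081 CPM). All 3 vessel wall rows were present, with no row at 0. Their means were 4743 CPM for mir-143, 3816 CPM for mir-126 and 276.6 CPM for mir-145, so mir-145 added little to the sum. In library 5 mir-126 (2718 CPM) and mir-143 (3790 CPM) were at their lowest, but mir-145 (360.6 CPM) was not. The row mir-145 was lowest in library 4 (151.0 CPM) and highest in library 3 (375.1 CPM). Relations were tested with the sum only, not with the single rows. Here r was 0.51 for mir-23 (exact permutation p = 0.328, adjusted p = 0.328), 0.74 for mir-24 (exact permutation p = 0.104, adjusted p = 0.125) and 0.73 for mir-27 (exact permutation p = 0.100, adjusted p = 0.125). The rho values were 0.09 for mir-23 (exact p = 0.919, adjusted p = 0.919), 0.60 for mir-24 (exact p = 0.242, adjusted p = 0.290) and 0.66 for mir-27 (exact p = 0.175, adjusted p = 0.263). Without the 2 libraries farthest from the median, r was 0.29, 0.61 and 0.80 in that order. Library 1 had the highest vessel wall level, close to that of library 6 (9993 CPM), and a mir-27 level of 22107 CPM, below the mir-27 mean. It is named because r was highest without it: 0.89 for mir-23, 0.88 for mir-24 and 0.95 for mir-27. Each then had an adjusted p of 0.080 in the exact permutation test over 5 libraries. Some other left-out libraries lowered r. It was 0.33 for mir-23 and 0.57 for mir-27 without library 5, and 0.65 for mir-24 without library 4. In bulk brain RNA, more cells of a type and more miRNA per cell cannot be told apart.

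The spread of the ratios was compared with that of the levels. The SD of the log2 ratio of mir-27 to mir-24 was 0.10, smaller than the SD of either level (0.21 and 0.20). For mir-27 to mir-23 it was 0.12 and for mir-23 to mir-24 it was 0.13, each between the SDs of the 2 levels. Counting error alone would give 0.03, 0.02 and 0.03 in that order, and error from library preparation was not measured. Library 6 had the highest ratio of mir-27 to mir-23 and the lowest of mir-23 to mir-24, where mir-27 and mir-24 were high and mir-23 was not as high.

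Other miRNA clusters of vertebrates gave a frame for these ratios. Of 20 fixed pairs of families from such clusters, 15 had both rows among those tested. Their SD of the log2 ratio ranged from 0.11 for mir-216 and mir-217 to 1.02 for mir-192 and mir-194, with a median of 0.30, and the median over all 22791 pairs of tested rows was 0.51. Of the 15 pairs, 0 had a smaller SD than mir-24 with mir-27, and 2 had a smaller SD than mir-23 with mir-27 or mir-23 with mir-24. These 2 were mir-216 with mir-217 (0.11) and mir-17 with mir-92 (0.11). The red blood cell pair mir-144 and mir-451 had an r of 0.90, as high as that of mir-23 with mir-27, but a ratio SD of 0.49. Its levels varied unequally, with a log2 SD of 0.91 for mir-144 and 0.57 for mir-451. The pair mir-143 and mir-145 of smooth muscle had an r of 0.27 and a ratio SD of 0.50. A small ratio SD can also come from 2 steady rows that do not move together. The pair mir-17 and mir-19 had a ratio SD of 0.14 at an r of -0.02, with log2 SDs of 0.12 and 0.08. Over the 15 pairs the median r was 0.56, from -0.44 for mir-193 with mir-365 to 0.91 for mir-192 with mir-194. This comparison is a description with no test, and counting noise adds more to the ratio SD where a row has few counts.

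**Figure D4:**
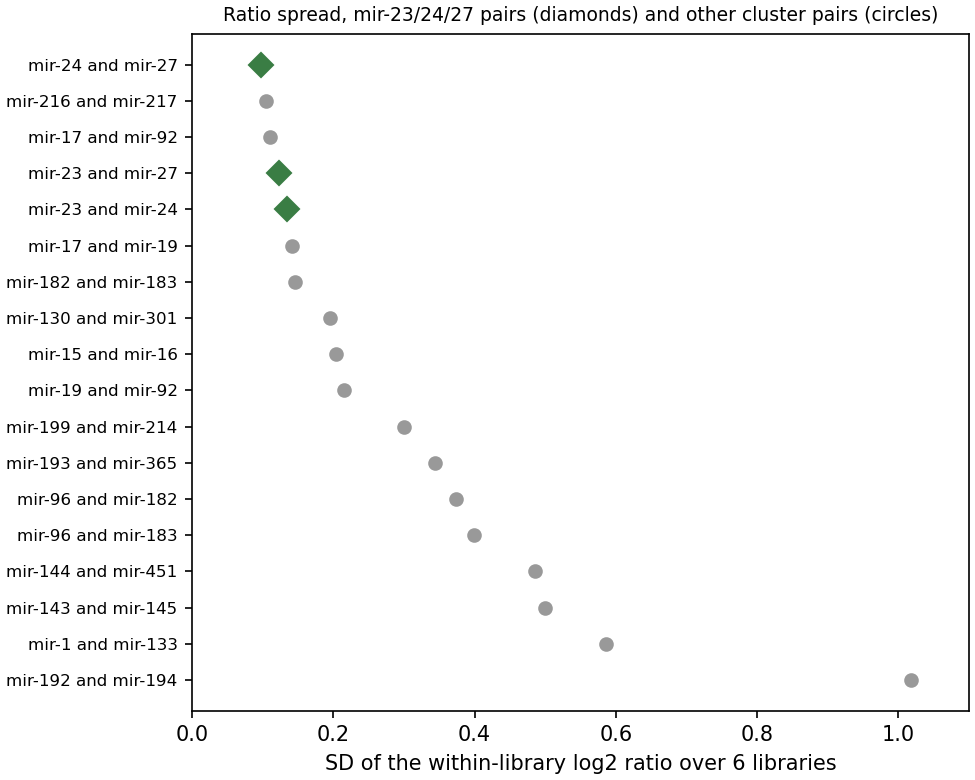
SD of the within-library log2 ratio over 6 libraries for 18 pairs of families that share a cluster in vertebrates, ordered by that SD, with the 3 pairs of mir-23, mir-24 and mir-27 as diamonds and the 15 other pairs as circles. The diamonds lie at 0.10, 0.12 and 0.13, and the circles run from 0.11 to 1.02.

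Unequal levels were also seen between other families that share a cluster in vertebrates. The places of these genes in the killifish genome were not examined. Each row sums all copies of a family, so the folds compare family totals. The 125-fold excess of mir-27 over mir-24 was exceeded by 1 of the 15 pairs, mir-182 over mir-96 of the sensory cluster (551-fold). The 34.8-fold excess of mir-27 over mir-23 was exceeded by 4 of the 15. Besides mir-182 with mir-96, these were mir-183 with mir-96 (88.6-fold), muscle mir-133 with mir-1 (49.1-fold) and mir-199 with mir-214 (48.3-fold). Both folds over mir-96 rest on a row of low level (4.18 CPM). A separate row named mir-96a (5.19 CPM) was not added to it, and adding it would make both folds smaller. At the other end, mir-16 was 1.37-fold above mir-15, and mir-19 was 1.23-fold above mir-17. Each of these 15 pairs kept its order in 6 of 6 libraries.

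The rows most like each family over the 6 libraries were found by Pearson's r of log2(CPM + 1) among 213 other tested rows. The 3 closest rows included mir-27 for both mir-23 and mir-24, and neither partner for mir-27. For mir-27 the order was mir-148 (r = 0.98), the predicted feature pred_347 (0.91), mir-821 (0.90), mir-23 (0.89) and mir-24 (0.89). For mir-23 it was the row named mir-BART15 (0.96), mir-27 (0.89) and mir-148 (0.85), with mir-24 in place 7 (0.78). For mir-24 it was pred_347 (0.97), mir-10 (0.93) and mir-27 (0.89), with mir-23 in place 6 (0.78). These rows were picked from the top of 213 values, each over only 6 libraries, and are given as a description.

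The closest row to mir-27 was mir-148, a family known in human cells to target DNA methyltransferase transcripts. It was lowest in library 5 (677.5 CPM) and highest in library 6 (889.5 CPM), as mir-27 was. The ratio of mir-27 to mir-148 stayed between 29.3-fold and 33.3-fold, with a log2 SD of 0.07, narrower than that of mir-27 with either of its partners. The row mir-BART15 carries the name of a viral family, and which reads were counted in it is not known. It stood at 4784 ± 222.2 CPM (SD, n = 6), and the log2 ratio of mir-23 to it had an SD of 0.04. The family mir-10 shared its lowest library (library 4, 26310 CPM) and its highest (library 6, 45662 CPM) with mir-24. The feature pred_347 rested on only 2 to 48 counts per library.

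Of 13 levels, shares and ratios of the 3 families examined for 1 library far from the other 5, 0 passed Dixon's criterion for 6 values, which flags about 1 in 20 by chance.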

How the data were processed

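The authors deposited 1 table of raw counts, whole numbers per family row and library, with no further scaling. Per the labels' protocols, libraries were made from total RNA with Illumina's TruSeq small RNA kit. Per the submitters' processing notes, the tools were BWA 0.7.12-r1039, SAMtools 1.3.1-9, Trimmomatic 0.36 and bcl2fastq 1.8.4. Not given in the sources used here are the genome build, the miRNA annotation and how reads matching several places were treated. Reads of near-identical families could be split either way.

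Columns were matched to samples by title, and libraries were numbered in accession order. Counts were scaled with edgeR 4.0.16 TMM factors (0.958 to 1.05), and log2 values are log2(CPM + 1). Ratios used counts plus 0.5. Variation was tested over 214 rows with a mean of at least 10 counts, by edgeR's intercept-only fit at the trended dispersion and Benjamini-Hochberg adjustment at 0.05. Correlations were tested over all 720 pairings with NumPy 2.4.6. Scripts were tested on simulated data. Alternatives included DESeq2 1.42.0. The 3 families in full, the 2 rows next above and below each, the 3 rows most alike and pairs from other clusters were named by rule. The members, lists and pairs were chosen with earlier results of these data known. No sequences are printed, since none were used here.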

Additional observations from a re-analysis of the deposited data

How the results depend on the processing

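With mir-181, the most abundant row, left out of the library total, the level was 33752 CPM for mir-27, 965.5 CPM for mir-23 and 270.1 CPM for mir-24, and their summed share was 3.50% of counts, because the total shrank. The 3 levels moved by less than 1 SD with DESeq2 size factors or plain CPM. The log2 ratios stayed at 5.08 to 5.15 for mir-27 to mir-23, 6.94 to 6.99 for mir-27 to mir-24 and 1.8 to 1.88 for mir-23 to mir-24 when 1 library was left out, as values with no test, since the exact test cannot go below p = 0.0625 with 5 libraries. The number of rows varying between libraries was 8 in edgeR's test and 6 to 9 with 1 library left out. It was 3 as DESeq2 dispersion outliers, 177 by the Poisson index and 22 with the trend fitted without the called rows, a setting chosen after seeing the data. In edgeR's alternatives the adjusted p of the 3 families stayed at 0.9993 or above. By the Poisson index, which grows with the count (48.4 for mir-23, 42.6 for mir-24 and 6386 for mir-27), they passed. No correlation passed under the scalings or left-out libraries tried. With 5 libraries the exact test has few pairings, so 1 relation alone could not fall under 0.05 after adjustment. The ratios were paired within libraries, but no paired comparison between conditions was possible because the 6 libraries form 1 group. Depth limits mir-24 most, at 1803 counts in library 4.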
